A study of Homo sapiens with 4 samples.

Results

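C/D box snoRNAs are short nuclear RNAs, and their levels were read here from RNA-seq of HaCaT, an immortalised human keratinocyte line. The members were chosen by name, as the gene rows whose symbol begins with SNORD, and there were 298 of them among 44591 gene rows. Of these, 296 are typed snoRNA in the files and 2 pseudogene. The 118 rows of the imprinted clusters SNORD113, SNORD114, SNORD115 and SNORD116 are described apart from the other 180. The series holds 4 untreated replicates of 1 condition, grown with 12% fetal bovine serum per the labels (the study's methods give another share), from which total RNA was taken. The labels do not say whether the replicates came from separate cultures. With no second condition no test between groups was possible, and the values describe these 4 libraries.

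A C/D box snoRNA carries a C box near its 5′ end and a D box near its 3′ end, and it works in a particle with fibrillarin, NOP56, NOP58 and SNU13. Most members guide the methylation of ribose at a chosen base of ribosomal RNA or of the spliceosomal RNA U6, through a stretch beside the D box that pairs with the target. A few act in the cleavage of the ribosomal RNA precursor instead, and those of the imprinted clusters mostly have no known ribosomal target. Most human members lie in introns of host genes and are released when the intron is trimmed, while SNORD3 and SNORD13 are transcribed from promoters of their own.

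The sequences of 3 of the 5 rows with the highest levels in replicate 1 (SNORD3A, SNORD17 and SNORD97) are printed here. They are followed by 4 short rows. Of these, SNORD36A was highest in that replicate, 1.46-fold above the next library, while SNORD43, SNORD110 and SNORD62A were not highest there. Capitals mark the first TGATGA, the letters searched for the C box, and the last CTGA, the letters searched for the D box, on the RNA's own strand. All are transcripts of GENCODE release 29.
SNORD3A: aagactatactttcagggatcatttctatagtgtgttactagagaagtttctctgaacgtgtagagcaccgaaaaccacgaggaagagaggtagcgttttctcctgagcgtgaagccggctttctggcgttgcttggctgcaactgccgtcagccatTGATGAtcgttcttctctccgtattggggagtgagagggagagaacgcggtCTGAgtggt
SNORD17: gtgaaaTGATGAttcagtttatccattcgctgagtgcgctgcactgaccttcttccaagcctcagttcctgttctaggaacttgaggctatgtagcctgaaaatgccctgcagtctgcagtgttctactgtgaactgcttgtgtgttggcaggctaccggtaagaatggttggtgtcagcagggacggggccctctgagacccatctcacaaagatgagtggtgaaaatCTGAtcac
SNORD97: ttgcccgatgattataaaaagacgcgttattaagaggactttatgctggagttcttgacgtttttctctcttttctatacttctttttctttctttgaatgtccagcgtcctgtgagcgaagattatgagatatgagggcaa
SNORD36A: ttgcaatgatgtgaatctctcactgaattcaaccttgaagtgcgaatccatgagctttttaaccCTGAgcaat
SNORD43: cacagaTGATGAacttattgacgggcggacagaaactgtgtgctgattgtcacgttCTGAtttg
SNORD110: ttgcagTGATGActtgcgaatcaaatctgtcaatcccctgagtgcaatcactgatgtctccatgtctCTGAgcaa
SNORD62A: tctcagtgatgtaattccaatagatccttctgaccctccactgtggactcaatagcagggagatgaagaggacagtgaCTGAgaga
SNORD97, SNORD36A and SNORD62A hold no TGATGA, which says only that these letters are not in the sequence. Of the 298 rows, 262 matched a GENCODE transcript by symbol, and 120 of these had the same length as in the files. TGATGA lay within the first 20 bases of 186 of the 262 (71.0%) and CTGA within the last 20 bases of 254 (96.9%). Among 142 transcripts of the other snoRNA class, whose symbols begin with SNORA, the shares were 0.7% and 8.5%.

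Replicate 1 stood apart from the other libraries. Its total count was 73082279, against 17056035, 19745170 and 19083836 in replicates 2, 3 and 4, and 76.09% of its counts fell on protein-coding genes, against 95.27 to 96.35% in the others. Levels are given as CPM, a row's counts per 1000000 counts of the library, and a row was called above the limit with more than 3 counts. Over the 15456 genes above the limit in all 4 libraries, the median ratio of replicate 1 to the mean of the others was -0.32 on the log2 scale in CPM, 0.01 in protein-coding CPM, scaled to the counts of protein-coding genes only, and -1.56 in TPM, scaled after division by length, against which the ratios of the snoRNAs can be read. The 6 keratinocyte markers were above the limit in all 4 libraries, summing to 8843.4 to 12391.5 CPM. Summed markers of fibroblasts were at 1.14 CPM in replicate 1 and 11.6 to 21.4 in the others, of immune cells at 1.16 and 6.03 to 15.5, of endothelium at 6.94 and 0 to 0.41, and of melanocytes at 1.66 and 1.37 to 2.81, with PECAM1 and TYR at 0 throughout and PTPRC at 3 counts in replicate 1 and 0 elsewhere. The part that depth, library composition or these markers have in the snoRNA values was not tested.

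C/D box snoRNAs took 146538 counts in replicate 1, and 1080, 830 and 542 in replicates 2, 3 and 4. The summed level was 2005.1 CPM in replicate 1 (95% Clopper-Pearson interval 1994.9 to 2015.4), 63.3 in replicate 2 (59.6 to 67.2), 42.0 in replicate 3 (39.2 to 45.0) and 28.4 in replicate 4 (26.1 to 30.9). No molecular identifiers are named that would mark reads as separate molecules, so the intervals hold the error of counting alone. Replicate 1 was thus 31.7-fold above the highest of the others, and the 4 intervals did not overlap. The share of all counts was 0.0535% ± 0.0980 (SD, n = 4) and fell to 0.00446% without replicate 1. In protein-coding CPM the sums were 2635.2, 66.5, 43.9 and 29.5, in the same order. In bulk libraries, fewer cells with a transcript and less of it per cell cannot be told apart.

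A single row made up most of the difference in counts. SNORD3A held 70.5% of all C/D box snoRNA counts in replicate 1, and the 5 highest rows together (SNORD3A, SNORD17, SNORD15B, SNORD133 and SNORD97) held 89.8%. In replicates 2, 3 and 4 the highest row was SNORD80, SNORD17 and SNORD31, with 5.37, 8.19 and 8.30% of the counts, and the top 5 held 20.8, 26.4 and 27.7%. The counts were thus spread over many rows in replicates 2 to 4 and gathered on a few in replicate 1. Without SNORD3A the summed level was 592.4, 61.3, 41.6 and 28.3 CPM, and replicate 1 remained 9.66-fold above the highest of the others.

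Above the limit stood 164 of the 298 rows in replicate 1 (55.0%), against 77 (25.8%), 67 (22.5%) and 49 (16.4%) in replicates 2, 3 and 4. Over all gene rows the share above the limit was 46.8, 42.9, 39.9 and 41.1%. By this limit the 298 rows were above the background in replicate 1, the deepest library, and below it in the other 3. For the 180 rows outside the imprinted clusters the share was 83.3, 42.8, 37.2 and 26.7% in replicates 1 to 4. For the 118 imprinted rows it was 11.9, 0, 0 and 0.85%. Outside the clusters the share was thus above the background in replicate 1, close to it in replicate 2 and below it in replicates 3 and 4. At a common level, that of 3 counts in the shallowest library (0.176 CPM), 129 rows were above in replicate 1 and 77, 67 and 49 in the others. The share of all gene rows at this level was not computed, so these counts stand without a background. In all, 169 rows passed in any library, 39 passed in all 4 and 79 passed in replicate 1 alone. A further 114 rows were listed at 0 in every library, 93 of them in the imprinted clusters, and 15 had 1 to 3 counts at most.

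Of the 169 rows, 125, 33, 5 and 6 had their highest CPM in replicates 1, 2, 3 and 4. Over all genes that passed the same filter, 33.8, 26.3, 18.8 and 21.1% were highest in these replicates. Since 79 of the rows passed through replicate 1 alone, this count is no support for a difference. Among the 90 rows above the limit in replicate 2, 3 or 4, a filter chosen after seeing the data, 59 (65.6%) were highest in replicate 1, against a background of 26.8%. The number depended on the scale, and of the 169 rows 135 were highest in replicate 1 in protein-coding CPM and 93 in TPM. The share over all genes is given in CPM alone, so counts in the other scales stand without a background. With the filter on replicates 2 to 4, 51 of 60 SNORA rows (85.0%) and 63 of 276 other genes shorter than 300 bases (22.8%) were highest there.

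Outside the imprinted clusters the gap between libraries differed with row length, in classes set after the values were seen. The 91 rows under 80 bases summed to 72.3, 35.0, 24.6 and 15.4 CPM in replicates 1 to 4. The 49 rows of 80 to 99 bases summed to 32.8, 14.6, 8.31 and 6.76. The 31 rows of 100 to under 150 bases summed to 241.3, 6.39, 4.30 and 3.46, and the 9 rows of 150 bases or more to 1653.1, 6.63, 4.66 and 2.52. Replicate 1 was 2.07-fold and 2.25-fold above the highest other library in the short classes and 37.8-fold in the class of 100 to under 150 bases. In that last class SNORD15B alone gave 146.7 of the 241.3 CPM. In TPM this order turned for the short classes, with 955.1 in replicate 1 and 1142.4 in replicate 2 for rows under 80 bases, and 354 and 379.6 for those of 80 to 99.

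**Figure D1:**
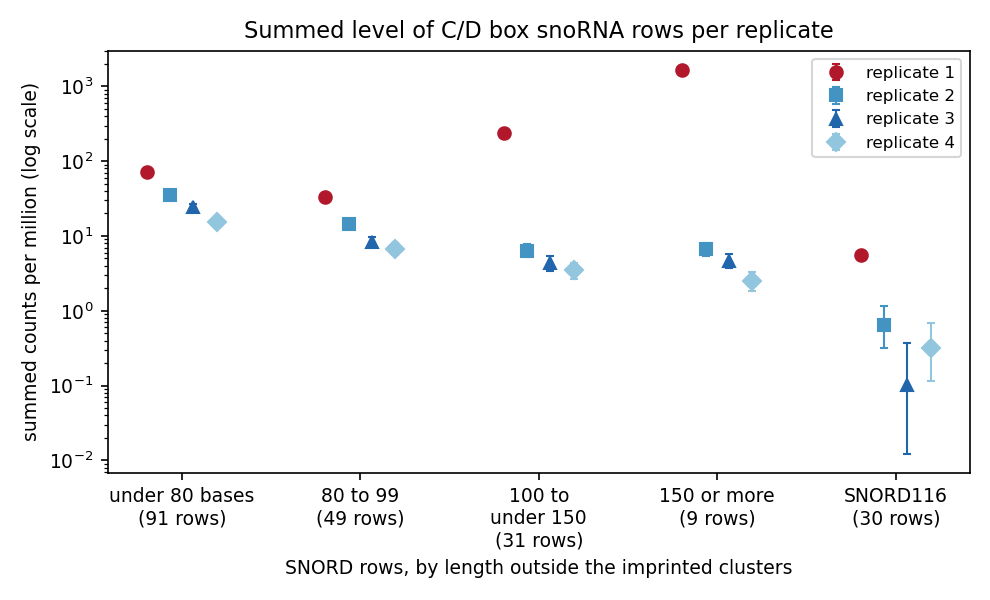
Summed level of C/D box snoRNA rows in CPM (log axis) for 4 length classes outside the imprinted clusters and for SNORD116, with 1 symbol per replicate and bars for the 95% Clopper-Pearson interval. Replicate 1 is highest in every class in CPM, at 1653.1 for rows of 150 bases or more against at most 6.63 elsewhere, while under 80 bases it is at 72.3 against at most 35.0 and falls below replicate 2 in TPM.

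Rows of 100 bases or more took 94.5% of the C/D box snoRNA counts in replicate 1 and 20.6, 21.3 and 21.0% in replicates 2 to 4. Without the 5 SNORD3 rows they summed to 453.5, 10.7, 8.41 and 5.87 CPM, with replicate 1 still 42.3-fold above the highest other library. Of the 453.5 CPM, SNORD17 gave 162.7 and SNORD15B 146.7, so this ratio of sums rests mostly on a few rows. Among the 89 rows above the limit in replicate 2, 3 or 4, the median ratio of replicate 1 to the mean of the others was 2.37 under 80 bases (43 rows), 2.11 at 80 to 99 bases (28 rows with a ratio) and 8.62 at 100 bases or more (17 rows). Over the 88 rows with a ratio, Spearman's rho between length and ratio was 0.36, a description over rows that share the same 4 libraries and are not independent. The ranking of the 89 rows by CPM per kilobase was also least alike between replicate 1 and the others, with rho of 0.23, 0.35 and 0.28, against 0.51 to 0.66 among replicates 2, 3 and 4. These rows share library and depth, and many hold few counts.

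**Figure D2:**
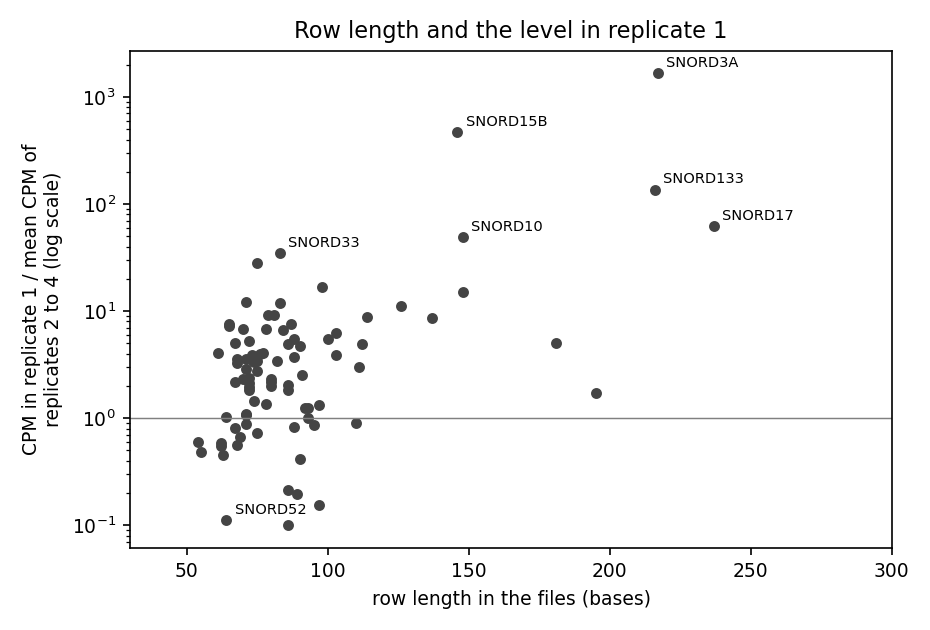
Row length in bases against the ratio of CPM in replicate 1 to the mean CPM of replicates 2 to 4 (log axis), 1 point for each of 88 rows outside the imprinted clusters, with the line at equal levels. Ratios run from 0.10 to 34.7 in rows under 100 bases and from 0.90 to 1659.4 in rows of 100 bases or more.

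Among the rows listed for processing of ribosomal RNA, 12 of 13 were above the limit in replicate 1, against 46.8% of all gene rows. The list summed to 1461.4, 6.74, 3.54 and 1.62 CPM, and 5 of the 12 passed the limit through replicate 1 alone, so that their place was fixed by the filter. Of the other 7, all were highest in replicate 1 in CPM and 4 in TPM, where the share over all genes with more than 3 counts in replicate 2, 3 or 4 was 26.8% in CPM. SNORD3A, the U3 RNA needed for the first cuts on the way to small-subunit rRNA, lies at chr17:19091329-19091545 on the plus strand, in no host gene, with positions as the files give them (hg19 in the submitters' processing notes). It had 103247 counts in replicate 1 and 34, 9 and 2 in replicates 2, 3 and 4, or 1412.8, 1.99, 0.456 and 0.105 CPM (mean 353.8 ± 705.9, SD, n = 4). The other libraries did not come near replicate 1, which was 708.7-fold above the highest of them. Per length it was also the highest row there, at 6510.4 CPM per kilobase.

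The near-identical copies of SNORD3A followed it at lower counts. SNORD3B-2 had 1055 counts in replicate 1 and 0 in the others, and SNORD3B-1 had 478, 1, 0 and 0. SNORD3C had 265, 1, 0 and 0, and SNORD3D had 259, 3, 2 and 0. Counted from 1 at the 5′ end of the GENCODE transcript, SNORD3B-1 and SNORD3B-2 share 1 sequence that differs from SNORD3A by A78C, SNORD3C differs by G108A, and SNORD3D by A4G, C53T and A78C. Reads cannot be divided between such copies with certainty, so the 5 rows are best read as a sum, which was 1440.9, 2.29, 0.557 and 0.105 CPM.

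SNORD13, the U13 RNA that pairs with small-subunit rRNA, had 548 counts in replicate 1 and 0 in the other 3, at least 42.6-fold above the level of 3 counts in replicate 2, the shallowest library. SNORD22, which lies in SNHG1 and is required for maturation of small-subunit rRNA, had 474, 12, 13 and 7 counts (6.49, 0.704, 0.658 and 0.367 CPM). Both were highest in replicate 1 without overlap with the other libraries. The U14 copies, SNORD14A to SNORD14E, varied in how far the libraries lay apart. SNORD14A had 64, 14, 14 and 11 counts, or 0.876, 0.821, 0.709 and 0.576 CPM (0.745 ± 0.132, n = 4). SNORD14B had 147, 19, 14 and 11 counts. SNORD14E had 86, 19, 10 and 0 counts, and its CPM in replicate 1 was 1.06-fold that in replicate 2. The gap was wider for SNORD14C, with 67, 6, 3 and 0 counts (2.61-fold over the highest other library in CPM), and SNORD14D, with 111, 6, 5 and 0 (4.32-fold). SNORD118, the U8 RNA of large-subunit rRNA maturation, was listed at 0 in all 4 libraries, while TMEM107, the gene that holds it and whose annotated exon overlaps it in GENCODE release 29, had 1494, 242, 193 and 412 counts. What became of reads over this shared stretch was not tested.

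Other long rows also had high counts in replicate 1. SNORD17, in SNX5 at chr20:17943353-17943589 on the minus strand, guides methylation of large-subunit rRNA and had 11893, 45, 68 and 33 counts, or 162.7, 2.64, 3.44 and 1.73 CPM (42.6 ± 80.1, SD, n = 4). It was the highest row of replicate 3 and among the top 5 in every library. SNORD15B, in RPS3, had 10722, 3, 11 and 4 counts, or 146.7, 0.176, 0.557 and 0.210 CPM. SNORD15A, elsewhere in the same host, had 135, 1, 4 and 2 counts, so the pair differed far more in replicate 1 than in the others.

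SNORD133, in LARP4 at chr12:50850354-50850569 on the plus strand, had 3442, 8, 5 and 6 counts (47.1, 0.469, 0.253 and 0.314 CPM). SNORD97, in EIF4G2 at chr11:10823014-10823155 on the minus strand, guides methylation of a methionine tRNA and had 2349 counts in replicate 1 and 0 in each of the others, at least 182.7-fold above the level of 3 counts in replicate 2. Both stood far above the other libraries in replicate 1. SNORD89 had 663, 18, 16 and 24 counts (9.07, 1.06, 0.810 and 1.26 CPM) and was among the top 5 of replicate 4. By position in the files it lay in no gene, although its GENCODE release 29 transcript overlaps an exon of RNF149.

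**Figure D3:**
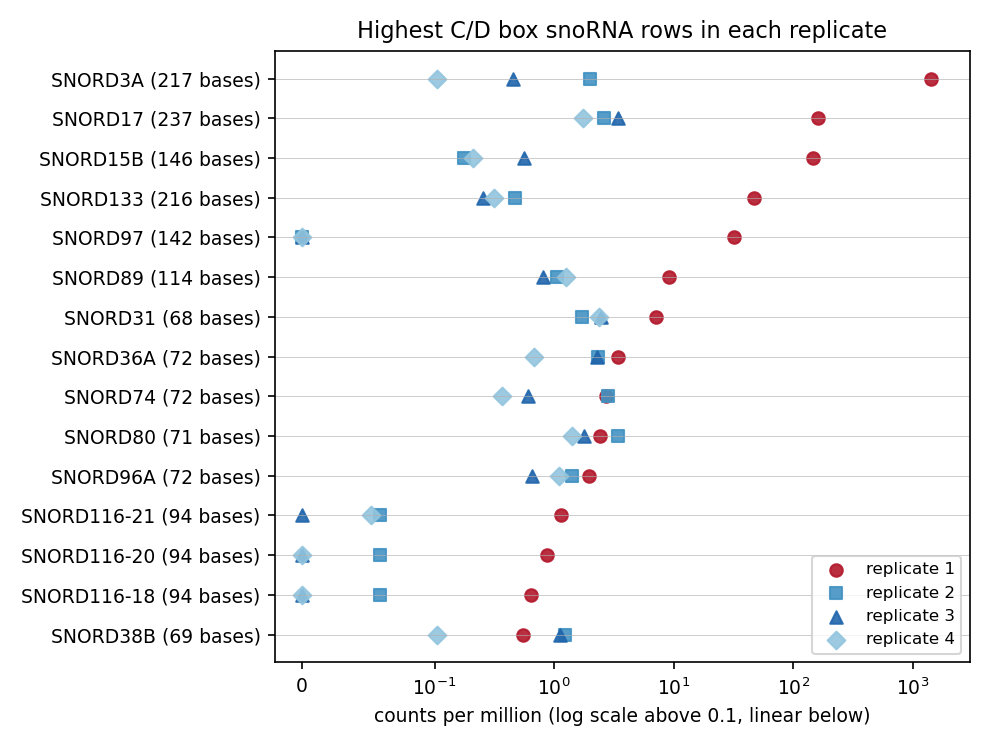
Level in CPM (log axis above 0.1, linear below) of the 5 highest rows of each replicate and of the 3 highest SNORD116 rows, with 1 symbol per replicate. SNORD3A, at 1412.8 in replicate 1 and at most 1.99 elsewhere, shows the widest gap, while SNORD80, SNORD74 and SNORD38B are higher in replicate 2 than in replicate 1.

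Guides that direct methylation of the U6 RNA of the spliceosome summed to 31.4, 2.23, 0.962 and 0.681 CPM over 6 rows. SNORD10 took most of this, with 1834, 15, 8 and 5 counts (25.1, 0.880, 0.405 and 0.262 CPM). SNORD94 had 233, 11, 4 and 5 counts, SNORD8 102, 1, 1 and 0, and SNORD9 80, 2, 5 and 3. SNORD67 had 38, 8, 1 and 0 counts, a CPM in replicate 1 only 1.11-fold that in replicate 2, and SNORD7 was near the limit with 4, 1, 0 and 0. Of the 4 that passed the limit in replicate 2, 3 or 4, all were highest in replicate 1 in CPM and 3 in TPM. Over all genes with that filter, 26.8% were highest there in CPM.

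A gene around SNORD10 was listed at 0 in 1 library. SNORD10 lies within EIF4A1, a translation initiation factor, whose own count was 0 in replicate 1 and 16830, 32148 and 15611 in the others, and within SENP3-EIF4A1, with 152, 18319, 34613 and 17157. SNRPN, next to the SNORD116 cluster, was likewise at 0 in replicate 1 and at 424, 447 and 616 counts in the others. EIF4A1 and SNRPN, which overlap other genes, were thus at 0 in replicate 1 alone. Whether the libraries were counted in the same way, and what part that has in the snoRNA counts, was not tested. Of the 145 rows outside the imprinted clusters with a GENCODE transcript, 82 overlap an annotated exon of another gene on their strand and 63 do not. Those above the limit numbered 72, 43, 42 and 27 of the 82 in replicates 1 to 4, and 50, 23, 15 and 12 of the 63. Over all gene rows the share above the limit was 46.8, 42.9, 39.9 and 41.1%. Replicate 1, the deepest library, thus held the most in both sets and also over all gene rows.

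Rows under 100 bases outside the imprinted clusters held 5.24% of the C/D box snoRNA counts in replicate 1 and 78.3, 78.3 and 77.9% in replicates 2 to 4. SNORD31, in SNHG1, guides methylation of large-subunit rRNA, and with 524, 29, 49 and 45 counts (7.17, 1.70, 2.48 and 2.36 CPM) it was the highest row of replicate 4. SNORD80, in GAS5, was the highest row of replicate 2, with 176, 58, 35 and 27 counts, or 2.41, 3.40, 1.77 and 1.41 CPM (2.25 ± 0.871, n = 4). In this row replicate 1 lay inside the range of the others, as it did for SNORD74, also in GAS5, with 197, 48, 12 and 7 counts (2.70, 2.81, 0.608 and 0.367 CPM). SNORD36A, in RPL7A, had 250, 40, 45 and 13 counts (3.42, 2.35, 2.28 and 0.681 CPM), and per length 47.5, 32.6, 31.6 and 9.46 CPM per kilobase. SNORD38B had 40, 21, 22 and 2 counts (0.547, 1.23, 1.11 and 0.105 CPM), with replicate 4 lowest.

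Rows lower in replicate 1 than in another library numbered 44 of the 169. The other 125 were highest there, a count that the filter favours, against 33.8% of all genes that passed it. SNORD43, in RPL3, had 28, 20, 17 and 1 counts (0.383, 1.17, 0.861 and 0.0524 CPM). SNORD110, in NOP56, a core protein of these same particles, had 48, 33, 10 and 5 counts (0.657, 1.94, 0.507 and 0.262 CPM). SNORD52 had 4, 11, 11 and 5 counts and was lower in CPM in replicate 1 than in each of the others. So was SNORD62B, with 16, 25, 16 and 15 counts. SNORD62A, which has the identical sequence and lies in the same host, PRRC2B, had 25, 6, 3 and 0 counts. In CPM SNORD62A was at 0.342, 0.352, 0.152 and 0, with replicate 1 just below replicate 2. Since reads from identical copies cannot be told apart by sequence, the split between them is uncertain.

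Several C/D box snoRNAs serve as small RNA references in quantitative PCR, and 10 of 11 such rows were above the limit in at least 1 library. Over all genes, 23712 of 44591 rows were. They summed to 10.7, 6.80, 3.24 and 2.46 CPM, and of the 9 above the limit in replicate 2, 3 or 4, 6 were highest in replicate 1 in CPM and 3 in TPM. The share over all genes with that filter was 26.8% in CPM. SNORD96A, in RACK1, was the closest to level, with 142, 24, 13 and 21 counts (1.94, 1.41, 0.658 and 1.10 CPM, mean 1.28 ± 0.540, n = 4). SNORD44 had 145, 11, 9 and 7 counts, and SNORD47 had 80, 5, 4 and 6. SNORD49A had 225, 6, 5 and 3 counts, and SNORD68 had 52, 11, 4 and 1. Lower in replicate 1 than in replicate 2 in CPM were SNORD43 (28, 20, 17 and 1 counts), SNORD95 (20, 18, 10 and 5) and SNORD48 (17, 10, 2 and 0). SNORD24 was at 67, 11, 0 and 3 counts, SNORD72 at 5, 0, 0 and 0, and SNORD61 at 0 in all 4.

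By position and strand, 166 of the 180 rows outside the imprinted clusters lay in 89 host genes, 40 of them in 17 ribosomal protein genes and 31 in 10 genes named SNHG, GAS5 or ZFAS1. Rows with a host summed to 538.3, 58.0, 39.4 and 25.9 CPM, and the 14 without one to 1461.2, 4.63, 2.48 and 2.15. A snoRNA count can be set against the count of its host, which shares the transcript. The hosts named here were chosen for the largest summed snoRNA counts in replicate 1, so the choice favours a high value there. SNORD17 had 123.8 counts per 100 counts of SNX5 in replicate 1 and 1.38, 1.36 and 1.51 in the others. For SNORD133 and LARP4 the values were 86.8, 0.676, 0.683 and 0.569. For the SNORD15 pair and RPS3 they were 10.5, 0.0146, 0.0326 and 0.0221, and for SNORD97 and EIF4G2 3.76 and 0 in each of the others. The host genes themselves differed far less, with SNX5 at 131.5, 190.7, 252.9 and 114.5 CPM and RPS3 at 1417.8, 1609.6, 2330.5 and 1421.7.

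In SNHG1, whose spliced RNA codes for no protein, 6 of the 8 rows passed the limit in replicate 2, 3 or 4, and of these all were highest in replicate 1 in CPM and 5 in TPM. Over all genes, 20680 of 44591 rows passed that filter, and 26.8% of these were highest in replicate 1 in CPM. SNORD27 and SNORD30 passed through replicate 1 alone. Together the 8 rows had 29.1, 6.74, 6.40 and 9.33 counts per 100 counts of SNHG1. The 10 rows of GAS5, a growth-arrest transcript of the same kind, had 11.3, 8.96, 2.51 and 5.60 per 100 counts of GAS5, and here replicates 1 and 2 were close. Summed, the GAS5 rows were at 11.3, 8.21, 3.75 and 3.04 CPM. Of the 6 above the limit in replicate 2, 3 or 4, 3 were highest in replicate 1 in CPM, beside the same 26.8%. In TPM the sum of the GAS5 rows was lower in replicate 1 (151.5) than in replicate 2 (270.3). The 4 rows of RPL13A, of which SNORD32A, SNORD33 and SNORD35A are known from work on lipid stress, summed to 7.38, 1.94, 0.709 and 0.210 CPM. SNORD33 gave most of this, with 297, 6, 0 and 0 counts. SNORD50A and SNORD50B, in SNHG5, had 12, 1, 1 and 0 and 53, 1, 11 and 0 counts, and their sum in TPM was higher in replicate 3 (16.4) than in replicate 1 (11.6).

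**Figure D4:**
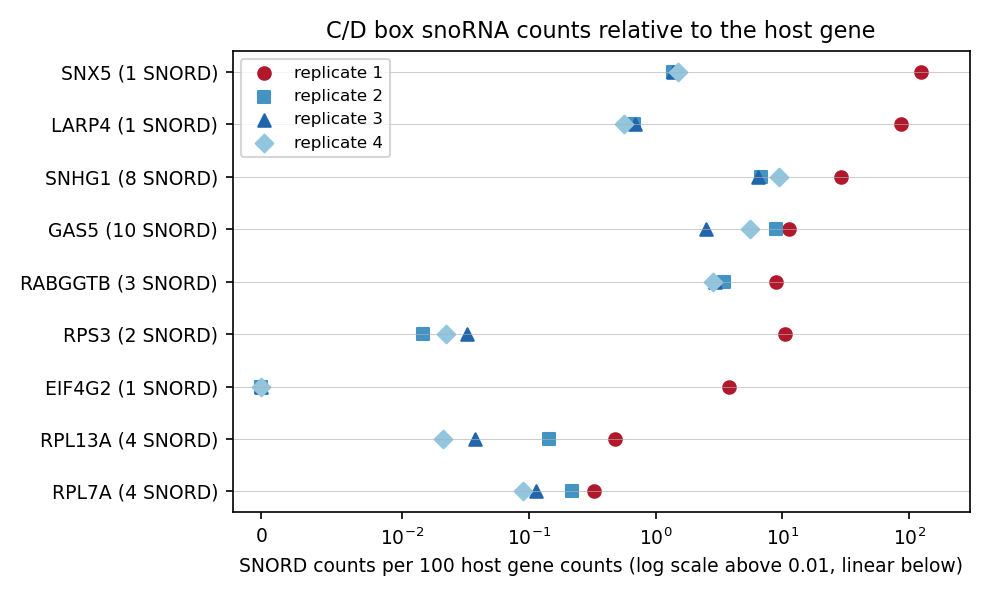
C/D box snoRNA counts per 100 counts of the host gene (log axis above 0.01, linear below) for 9 host genes, with the number of snoRNA rows in each and 1 symbol per replicate. Replicate 1 is highest for all 9, from 123.8 against at most 1.51 for SNX5 to 11.3 against 8.96 for GAS5. SNX5, RPS3, LARP4, EIF4G2 and SNHG1 were chosen for their snoRNA counts in replicate 1, and RPL7A and RABGGTB after their values were seen. The count of 9 is therefore no support for a difference.

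The genes for the proteins of the particle were read from their own transcripts. The 4 core protein genes FBL, NOP56, NOP58 and SNU13 summed to 248.8 CPM in replicate 1 and 576.7, 681.9 and 387.5 in the others, all 4 above the limit in every library. The 7 assembly factor genes summed to 323.3, 489.2, 623.8 and 435.8 CPM, again with every gene above the limit. Both sums were lowest in replicate 1, also in protein-coding CPM, at 327 and 424.9. Single genes varied, with all 4 core genes and 4 of the 7 assembly factors lowest in replicate 1 in CPM, and 3 and 4 in protein-coding CPM, where RPAP3 was highest in that library (50.8 against 22.9 to 42.2). The share of all genes lowest in replicate 1 was not computed. Over the 15456 genes above the limit in all 4 libraries, the median log2 ratio there was -0.32 in CPM and 0.01 in protein-coding CPM.

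The imprinted clusters were almost without counts, except for SNORD116. Together the 118 rows summed to 5.54, 0.704, 0.152 and 0.314 CPM (1.68 ± 2.59, SD, n = 4), and the mean without replicate 1 was 0.390. SNORD113 (9 rows, chr14:101391158-101412056) was at 0 in all 4 libraries, and 3 counts, taken as the limit that a count of 0 allows, would be 0.0411 CPM in replicate 1 and 0.176 in replicate 2. SNORD114 (31 rows, chr14:101416170-101459646) had 1, 1, 1 and 0 counts. Both belong to the DLK1-DIO3 domain, whose non-coding RNAs are expressed from the maternal copy, and MEG3, another of these RNAs, was also low, with 0, 13, 6 and 5 counts.

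SNORD115 (48 rows, chr15:25415870-25515005), a brain family that pairs with the RNA of the serotonin receptor HTR2C, was at 0 in all 4 libraries. Its first copy is shown as a member of the cluster that gave no count, with capitals as above.
SNORD115-1: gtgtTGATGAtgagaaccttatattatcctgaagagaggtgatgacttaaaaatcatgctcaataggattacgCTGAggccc
The 48 rows hold 42 distinct GENCODE sequences, and 9 rows share theirs with another copy, so a counting rule that drops reads with several matches could leave such rows at 0. Whether that happened was not tested. The rows with a sequence of their own were at 0 too, but how closely these resemble other copies was not examined.

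SNORD116 (30 rows, chr15:25296623-25353499), the family whose loss from the paternal copy is tied to Prader-Willi syndrome, had 404, 11, 2 and 6 counts. Its summed level was 5.53 CPM in replicate 1 (95% Clopper-Pearson interval 5.00 to 6.09), 0.645 in replicate 2 (0.322 to 1.15), 0.101 in replicate 3 (0.0123 to 0.366) and 0.314 in replicate 4 (0.115 to 0.684). The interval of replicate 1 lay above the others, whose own intervals overlapped. In replicate 1, 14 of the 30 rows were above the limit (46.7%), close to the 46.8% of all genes there, in replicate 4 only SNORD116-27 with 4 counts, and in replicates 2 and 3 none, while 8 rows were at 0 throughout. The gene that holds the cluster, ENSG00000224078.8, had 874, 244, 119 and 304 counts (12.0, 14.3, 6.03 and 15.9 CPM), so that its level in replicate 1 lay within the range of the others.

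The highest copies were neighbours. SNORD116-21 had 84, 1, 0 and 1 counts (1.15 CPM in replicate 1), SNORD116-20 had 64, 1, 0 and 0, SNORD116-18 had 47, 1, 0 and 0, and SNORD116-19 had 40 counts in replicate 1 alone. They lie between chr15:25330531 and 25334043 on the plus strand. Another pair, SNORD116-6 and SNORD116-7, had 40 and 33 counts in replicate 1. The GENCODE sequences of the neighbours are printed because they differ by single bases, with capitals at each base that differs from SNORD116-19.
SNORD116-19: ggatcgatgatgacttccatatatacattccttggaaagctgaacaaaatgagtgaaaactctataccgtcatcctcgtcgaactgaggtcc
SNORD116-18: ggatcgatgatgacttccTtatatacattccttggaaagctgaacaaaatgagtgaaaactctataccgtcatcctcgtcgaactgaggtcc
SNORD116-20: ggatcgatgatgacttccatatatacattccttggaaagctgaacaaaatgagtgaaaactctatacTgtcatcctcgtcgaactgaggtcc
SNORD116-21: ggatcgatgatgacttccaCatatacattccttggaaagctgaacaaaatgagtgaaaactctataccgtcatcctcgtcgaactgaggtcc
SNORD116-22: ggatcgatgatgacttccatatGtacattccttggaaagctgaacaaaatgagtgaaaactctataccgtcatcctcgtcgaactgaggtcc
Against SNORD116-19, counted from 1 at the 5′ end, SNORD116-18 has A19T, SNORD116-20 has C68T, SNORD116-21 has T20C and SNORD116-22 has A23G. SNORD116-22 was at 0 in all 4 libraries, although it too differs by 1 base. SNORD116-17 has the same sequence as SNORD116-19 and had 2 counts in replicate 1 against 40, and SNORD116-5 and SNORD116-7, also identical, had 2 and 33. Counts of single copies are therefore uncertain, and the family sum is the firmer value.

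**Figure D5:**
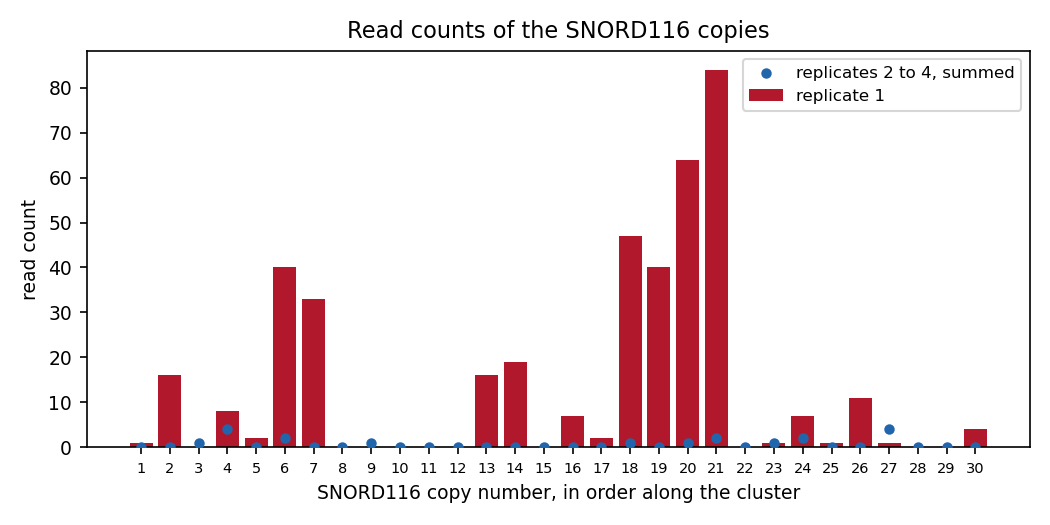
Read counts of the 30 SNORD116 copies in order along the cluster, as bars for replicate 1 and points for the sum of replicates 2 to 4, which are raw counts of libraries of unequal depth. Copies 21, 20 and 18 hold the highest bars, at 84, 64 and 47 counts, while the points stay at 4 or below.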

How the data were processed

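RNA-seq of 4 HaCaT replicates was analysed from tables with 44591 gene rows. The authors deposited raw counts, gene lengths and positions for all 4 replicates, RPKM for replicates 1 and 2 and TPM for replicates 3 and 4. The submitters' processing notes name hg19, HISAT2, HISAT, TopHat2 and Bowtie2, without roles. The counting program, annotation and strand setting are not given in the sources used here, and multiply matching reads or overlapping genes could affect snoRNA counts.

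CPM was computed from the counts, with TPM, CPM over protein-coding genes and the deposited units as alternatives. Rows with more than 3 counts were called above the limit. A host gene held the whole row on its strand. No test between groups was run, as there was 1 condition, and Dixon's outlier criterion was applied within the 4 replicates. The outlier and ranking steps were tested on simulated data. Members and lists were chosen with earlier results of these data known. Named were the top 5 rows per replicate, the top 3 per imprinted family above the limit, the role lists and the top 5 hosts by summed count in replicate 1. SNORD15A, SNORD52, SNORD62A, SNORD62B, SNORD110, SNORD116-5, SNORD116-6, SNORD116-7, SNORD116-17, SNORD116-19, SNORD116-22 and SNORD116-27 were added after their values were seen. So were RPL7A, RABGGTB and the overlapping genes. Intervals are 95% Clopper-Pearson. Python 3.11.15, pandas 2.3.3, NumPy 2.4.6, SciPy 1.17.1 and matplotlib 3.10.9 were used.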

Additional observations from a re-analysis of the deposited data

Results flagged for a closer look

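For 33 of 66 sets of 4 values, the gap between replicate 1 and the nearest other replicate took up more of the range than Dixon's 95% critical value for 4 samples. Chance flags about 1 in 20 such sets, or 3.3 of 66, and the sets are not independent, since all are read from the same 4 libraries. The number is no support for a difference, since of the 28 single rows among the 33 sets, 13 passed the limit in replicate 1 alone and 8 were named for a level that replicate 1 sets, 17 rows in all, and the criterion was met by 11 others. No set had replicate 2, 3 or 4 standing apart.

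Among the sums, the value of replicate 1 that stood apart was 2005.1 CPM for all C/D box snoRNAs, 1999.6 for those outside the imprinted clusters, 5.54 for the imprinted clusters, 241.3 for rows of 100 to under 150 bases and 1653.1 for rows of 150 bases or more. The sums of rows under 80 and of 80 to 99 bases did not stand apart by this measure.

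Of the single rows, those listed for processing of ribosomal RNA that stood apart were at 1412.8 CPM (SNORD3A), 14.4 (SNORD3B-2), 6.54 (SNORD3B-1), 3.63 (SNORD3C), 3.54 (SNORD3D), 7.50 (SNORD13) and 6.49 (SNORD22). SNORD10 at 25.1 CPM, SNORD94 at 3.19, SNORD8 at 1.40 and SNORD9 at 1.09 are guides to U6. The highest other rows were SNORD17 at 162.7 CPM, SNORD15B at 146.7, SNORD133 at 47.1, SNORD97 at 32.1 and SNORD89 at 9.07. From SNHG1 came SNORD31 at 7.17 CPM, SNORD25 at 4.93, SNORD26 at 3.91, SNORD27 at 1.08 and SNORD30 at 0.889. SNORD33 stood apart at 4.06 CPM, SNORD49A at 3.08, SNORD47 at 1.09 and SNORD72 at 0.0684, the last on 5 counts. SNORD116-21, SNORD116-20 and SNORD116-18 stood apart at 1.15, 0.876 and 0.643 CPM. That near-identical copies are among them, and that replicate 1 is 4.28 times as deep as replicate 2, are limits on the values of the low rows.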

How the results depend on the processing

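Of 42 alternatives, 34 left the value within 1 SD over the replicates, or a count within 1.5 times. For the share and both sums the SD exceeds the mean, so no fall could pass it, and this says nothing about their stability. In TPM the mean share of C/D box snoRNAs was 0.338%, the imprinted sum 20.7 and the sum outside the imprinted clusters 3362.0, and with the deposited RPKM and TPM they were 0.333%, 19.3 and 3306.5, because these units divide by length. Leaving out 1 replicate at a time, the share ranged from 0.00446 to 0.0704%, the imprinted sum from 0.390 to 2.19 CPM, the other sum from 44.2 to 701.4 CPM, the rows above the limit from 90 to 169 and the rows highest in replicate 1 from 127 to 144. The lowest of the first 4 ranges was in each case without replicate 1. Rows highest in replicate 1 numbered 59 with more than 3 counts required in replicate 2, 3 or 4, a filter that keeps 90 rows. Without the SNORD3 rows the share was 0.0174%, and without SNORD3A, added after seeing the data, 0.0181%. No paired analysis was possible because the samples form 1 group. Depth limits the rows of replicates 2 to 4, where 3 counts correspond to 0.152 to 0.176 CPM, against 0.0411 in replicate 1.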

Other observations

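Some C/D box snoRNAs of the chromosome 15 imprinted region fall outside the SNORD115 and SNORD116 families. SNORD107, SNORD108, SNORD64 and SNORD109B were at 0 in all 4 libraries, as was SNORD112 of the chromosome 14 region. SNORD109A had 8, 0, 1 and 0 counts, although its GENCODE sequence is identical to that of SNORD109B. IPW, a non-coding RNA between SNORD116 and SNORD115, had 1, 33, 12 and 24 counts, lowest in replicate 1, where the SNORD116 sum was highest. It lies within ENSG00000224078.8 on the same strand, and what part this overlap has in the counts of IPW was not tested.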
